A study of Arabidopsis thaliana with 12 samples.

Results

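The comparison described here is that of seed with fruit in lhp1-6, taken from 6 of the 12 libraries of the series: 3 of lhp1-6 seed and 3 of lhp1-6 fruit. The genes compared are the 19203 of 26925 listed genes that stood at 1 TPM or more, TPM being a library's transcripts scaled by gene length to a fixed total, in at least 3 of these 6 libraries. lhp1-6 is a mutant of LIKE HETEROCHROMATIN PROTEIN 1 in Arabidopsis thaliana, and the other 6 libraries are seed and fruit of the wild type Col-0, used here only where the tissue change of both genotypes is compared. All plants were kept at 22 °C before they bolted and afterwards at 16 °C (day) and 14 °C (night). Siliques of 14 to 15 days after pollination, when embryos have bent cotyledons, were opened under a microscope and the seeds parted from the fruit. Total RNA of the seeds and of the fruits of 3 to 5 siliques, pooled, made 1 replicate, and was read as 100 bp paired ends with a stated minimum of 25 M reads. Nothing in the labels ties replicates to separate plants. The p-values therefore measure only how far these samples spread, and that spread may be technical in part. All mutant libraries carry the same single allele. The question of the series is whether hormone transport carries maternal climate to the seed.

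A silique is an ovary wall around the seeds, with valves that photosynthesise, a vein-bearing replum, and a valve margin along which it later opens. A seed at the bent-cotyledon stage holds an embryo that is filling with protein and oil, an endosperm that is being consumed, and a seed coat of maternal origin. LHP1 binds the histone mark that the Polycomb system sets on genes kept silent, and helps to hold tissue-specific genes off; both tissues compared here carry the mutation in it.

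LHP1 itself (AT5G17690) had 0.310, 0.370 and 0.382 TPM in lhp1-6 seed, against 0.817, 0.858 and 0.699 TPM in lhp1-6 fruit. It was below the level for testing, and the Col-0 libraries held 20.8, 23.7 and 21.3 TPM in seed and 15.3, 17.5 and 18.0 TPM in fruit. Marker genes are given here as a description of the labelled tissues. The 8 storage protein genes summed to 81910, 31910 and 97490 TPM in seed, against 9404, 5808 and 7088 TPM in fruit, and the secondary wall regulators NST1 (AT2G46770), NST3 (AT1G32770) and SND2 (AT4G28500) were listed at 0 in each seed library. Genes at 0 in seed can reach the level for testing only through fruit. Of the 16 tested secondary wall genes 10 did so through fruit alone, and 1 of the 16 was higher in seed. Tissue took up 95.8% of the variance of the 6 libraries on the first principal component. The median SD between replicates on the log2(TPM + 1) scale was 0.104 in seed and 0.136 in fruit. Seed replicate 2 stood apart from the other seed libraries by its lower storage protein sum, and the storage protein, oil body, DOG1 and AT2G01021 results are given below with and without it. Organelle genes made up 0.178% of its listed TPM, against 0.0635% and 0.0605% in seed replicates 1 and 3. What sets this library apart was not tested. These are bulk samples, so fewer cells of a type and less RNA per cell cannot be told apart.

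Most genes differed between the tissues. Of the genes tested, 7514 (39.1%) were higher in seed and 7860 (40.9%) were lower in seed, in limma's test on log2(TPM + 1) with Benjamini-Hochberg adjusted p under 0.05. A change beyond 1 log2 unit was called for 2597 genes (13.5%) higher in seed and for 3452 genes (18.0%) lower in seed. The median change over all genes tested was -0.02. Of the genes tested, 576 reached the level for testing through seed alone and 1474 through fruit alone. Such genes had to differ, so counts and medians of the lists below are descriptions. The same holds for the p-value of any single gene that stayed under 1 TPM in each library of 1 tissue. Because these shares are large, a list in which about 4 in 10 members pass in a direction is close to the background. Values that do not overlap between the tissues are likewise only described below, since the share of all genes without overlap is not given here. Quantile normalisation moved the median change of all genes to 0.15 and gave 3272 genes higher and 2919 lower beyond 1 log2 unit, so the balance between the directions depends on the scaling. In what follows each value is TPM in replicates 1, 2 and 3 and each change is seed minus fruit on the log2(TPM + 1) scale, a scale on which the change of a gene near 0 is understated.

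The 2 directions differed in size. Among the 8103 genes with a mean of at least 20 TPM in seed, 990 were more than 4 times higher in seed than in fruit, 243 more than 8 times, 42 more than 10 times, and 0 more than 12 times. Among the 8649 genes with a mean of at least 20 TPM in fruit, 1449 were more than 4 times higher in fruit, 732 more than 12 times and 253 more than 128 times. The largest change towards seed was 3.44 and the largest towards fruit was -9.53. The 3054 genes with at least 50 TPM in all 3 seed libraries were seldom near 0 in fruit: the 1st percentile of their fruit level was 8.34%, 10.2% and 9.11% of the mean seed level in the 3 fruit libraries. The reverse ratio, over 3487 genes with at least 50 TPM in all 3 fruit libraries, had a 1st percentile of 0.0788%, 0.0681% and 0.0693% in the 3 seed libraries.

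**Figure D1:**
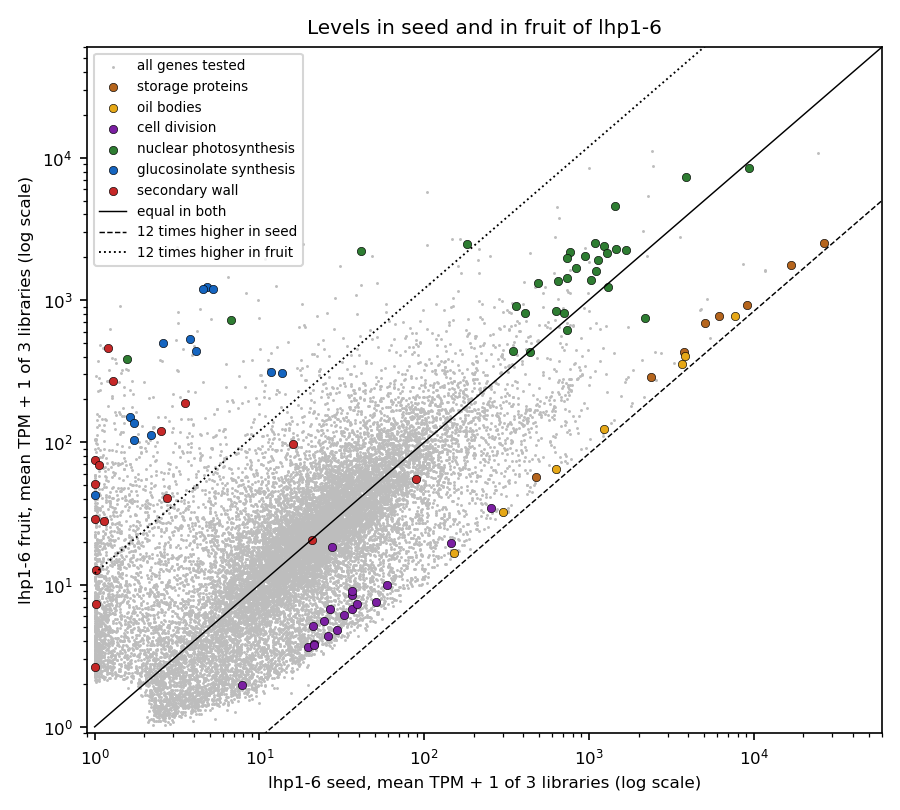
Mean TPM + 1 in lhp1-6 seed (x axis) against lhp1-6 fruit (y axis), both on log scales, for the 19203 genes tested, with 6 gene lists in colour and lines at equal levels and at 12 times the level of the other tissue. The cloud ends near the 12-fold line on the seed side, and reaches far past the 12-fold line on the fruit side, where the glucosinolate and secondary wall genes lie.

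When that 1st percentile share of the mean seed level was subtracted from each fruit library, 3099 genes were higher in seed beyond 1 log2 unit and 3655 were lower. The subtraction enlarges the changes of genes near the lowest fruit over seed ratios by construction, so the sizes it gives show nothing on the source of the fruit signal. What part seed RNA has in the fruit libraries was not tested.

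**Figure D2:**
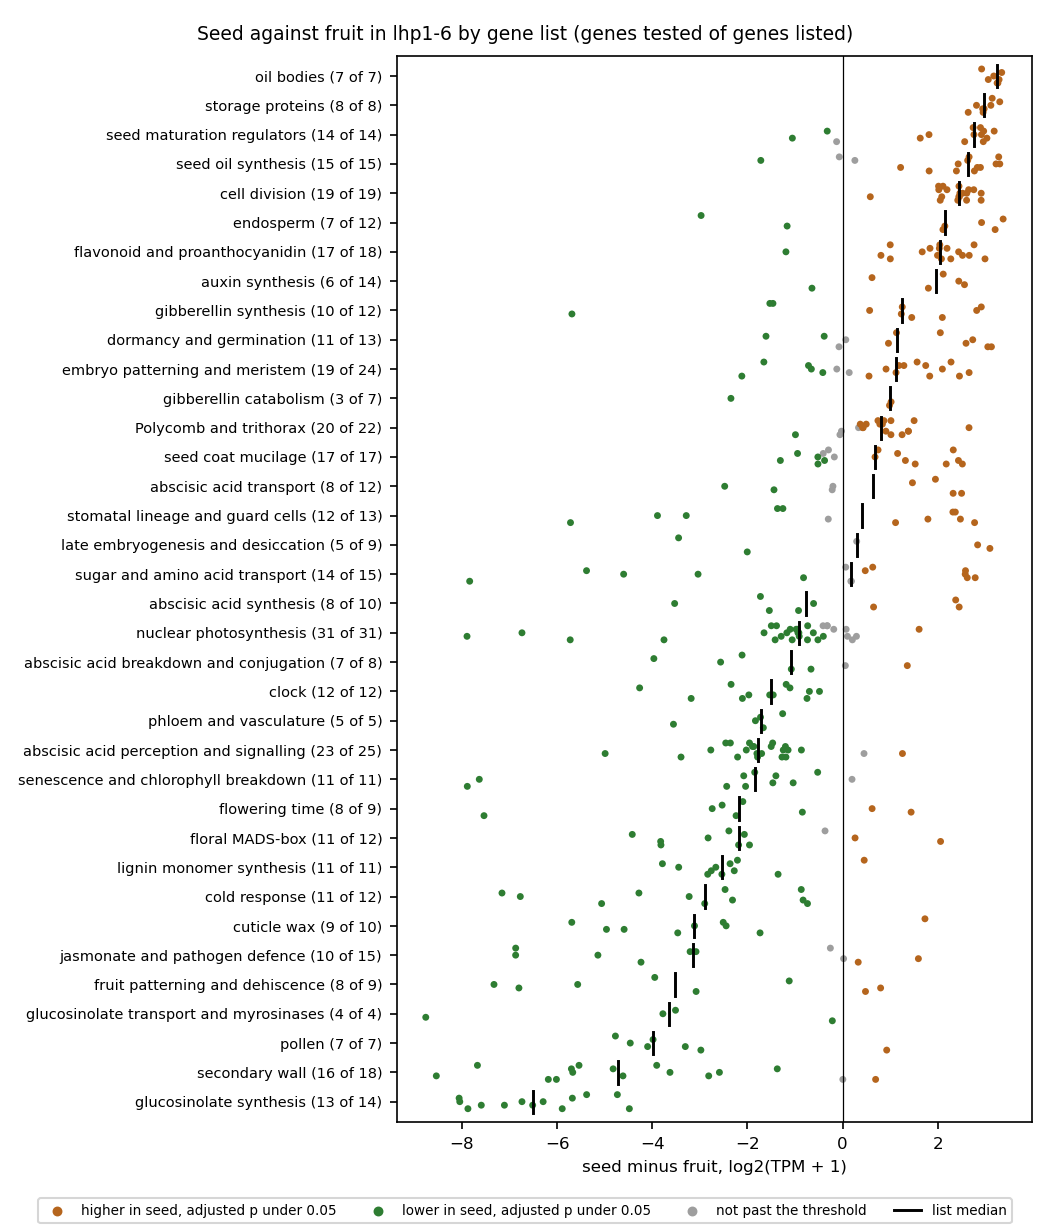
Seed minus fruit change in log2(TPM + 1) of each tested gene of 36 gene lists, ordered by the list median (black bar), with the genes tested of those listed in brackets. Oil body and storage protein genes lie at the top near 3, and glucosinolate synthesis and secondary wall genes at the bottom with medians of -6.52 and -4.72.

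Reserve deposition was the leading group in seed. All 8 storage protein genes and all 7 oil body genes were higher in seed, with median changes of 2.96 and 3.25. CRU1 (AT5G44120), a 12S globulin, had 6587, 3460 and 8334 TPM in seed, against 1022, 591 and 688 TPM in fruit, with a change of 2.94 (SE 0.36, adjusted p = 0.000149). SESA3 (AT4G27160), a 2S albumin and the transcript of highest mean TPM in seed, had 31430, 13400 and 35330 TPM in seed, against 2948, 2151 and 2442 TPM in fruit, with a change of 3.30 (SE 0.47, adjusted p = 0.000343). In seed replicate 2 AT2G01021 stood above it, at 41120 TPM. The storage protein levels of replicate 2 were below those of the other seed libraries for each of the 8 genes, and all seed values lay above all fruit values. The 2S albumin genes are close copies, so their single values are uncertain. The main oleosin OLEO1 (AT4G25140), which coats oil bodies, had 8740, 5336 and 8939 TPM in seed, against 810, 774 and 711 TPM in fruit, with a change of 3.29 (SE 0.25, adjusted p = 9.92e-06). OLEO3 (AT5G51210) was steadier between replicates, with 4121, 3579 and 3815 TPM in seed, against 369.5, 467 and 378 TPM in fruit. Without seed replicate 2, all 8 storage protein genes and all 7 oil body genes were again called higher, with medians of 3.54 and 3.55. CRU1 then changed by 3.31 (adjusted p = 7.81e-05), SESA3 by 3.74 (adjusted p = 0.000117) and OLEO1 by 3.53 (adjusted p = 9.96e-06).

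The regulators of seed maturation followed, with 11 of 14 higher in seed, 2 lower and a median of 2.75. FUS3 (AT3G26790), a B3-domain activator of the maturation programme, had 217, 196 and 193 TPM in seed, against 24.1, 31.0 and 23.1 TPM in fruit, with a change of 2.92 (SE 0.12, adjusted p = 4.2e-07). ABI3 (AT3G24650), the B3 activator that links abscisic acid to storage protein genes, had 140.1, 126 and 124 TPM in seed, against 12.9, 17.2 and 15.2 TPM in fruit. L1L (AT5G47670), a NF-Y subunit related to LEC1, had 756, 707 and 700.2 TPM in seed, against 65.5, 94.9 and 77.2 TPM in fruit. Seed and fruit values of these genes did not overlap, and seed replicate 2 did not stand apart in them. LEC1 (AT1G21970) itself had 72.7, 106 and 75.7 TPM in seed, against 8.98, 19.7 and 13.2 TPM in fruit. Seed replicate 2, lowest for storage proteins, was the highest seed library for LEC1. The bZIP factors did not move as 1 group: EEL (AT2G41070) changed by 2.96 and BZIP67 (AT3G44460) by 2.96, whereas ABI5 (AT2G36270) was slightly lower in seed, with 9.53, 9.47 and 9.94 TPM in seed, against 13.1, 12.9 and 11 TPM in fruit, with a change of -0.32 (SE 0.10, adjusted p = 0.0147). That call for ABI5 was lost after quantile normalisation (adjusted p = 0.0557), in TPM recomputed without storage, oil body, late embryogenesis and organelle genes (adjusted p = 0.0787) and in 1 fit over all 12 libraries (adjusted p = 0.113). The B3 repressors of this network also parted, VAL1 (AT2G30470) being higher in seed at 65.6, 67.8 and 64.5 TPM, against 16.9, 19.3 and 17.9 TPM in fruit. VAL2 (AT4G32010) was lower in seed at 18.3, 18.7 and 17.3 TPM, against 41.4, 33.5 and 42.0 TPM in fruit.

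Genes of seed oil synthesis were higher in seed together with their regulator. WRI1 (AT3G54320), the factor that turns on fatty acid synthesis genes, had 235, 249 and 178 TPM in seed, against 25.4, 41.0 and 30.8 TPM in fruit, with a change of 2.74 (SE 0.19, adjusted p = 5.89e-06). Of 15 oil genes 12 were higher in seed, 1 was lower and the median was 2.63. FAE1 (AT4G34520), which elongates fatty acids in seed oil, had 457, 400.2 and 406 TPM in seed, against 38.4, 52.4 and 36.0 TPM in fruit. BCCP2 (AT5G15530), a subunit of acetyl-CoA carboxylase, had 764, 684 and 700.1 TPM in seed, against 62.6, 87.2 and 70.5 TPM in fruit. DGAT1 (AT2G19450), an acyltransferase that makes triacylglycerol, changed by 1.22. The acyltransferase PDAT (AT5G13640) was lower in seed at 8.70, 8.93 and 8.28 TPM, against 34.1, 28.1 and 30.3 TPM in fruit, with a change of -1.72 (SE 0.09, adjusted p = 1.66e-06). FAD2 (AT3G12120), the desaturase used for oil and for membranes, stood at 1023, 940.3 and 1024 TPM in seed, against 794, 936 and 777 TPM in fruit and did not pass the test (adjusted p = 0.101).

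Genes of late embryogenesis and drying were mixed, with 5 of 9 tested, 2 higher and 2 lower. ECP63 (AT2G36640), a late embryogenesis abundant protein, was higher in seed at 29.9, 22.9 and 31.8 TPM, against 3.23, 3.76 and 2.3 TPM in fruit. RAB18 (AT5G66400), a dehydrin induced by abscisic acid, was lower in seed at 5.51, 13.2 and 42.6 TPM, against 128, 326 and 123 TPM in fruit, with a change of -3.45 (SE 0.68, adjusted p = 0.00195). EM6 (AT2G40170), a marker of late maturation, was below the level for testing at 0.292, 0.972 and 4.25 TPM in seed, against 0.355, 0.323 and 0.0823 TPM in fruit. For RAB18 and EM6 alike, seed replicate 3 was the highest seed library.

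Cell division genes lay towards seed, all 19 being higher there, with a median of 2.44. KN (AT1G08560), the syntaxin of the cell plate, had 244, 291 and 223 TPM in seed, against 27.6, 45.4 and 27.3 TPM in fruit, with a change of 2.91 (SE 0.20, adjusted p = 5.58e-06). CDC20.1 (AT4G33270), an activator of the anaphase-promoting complex, had 129.6, 168 and 135 TPM in seed, against 15.0, 23.8 and 16.7 TPM in fruit. The summed level of the list was 826, 1063 and 802 TPM in seed, against 116, 190.3 and 138 TPM in fruit, with replicate 2 the highest library in both tissues. Of 24 embryo patterning and meristem genes 19 were tested, 12 being higher in seed and 5 lower, and 4 of them reached the level for testing through seed alone. WOX9 (AT2G33880), which acts in the early embryo, had 18.8, 24.9 and 18.3 TPM in seed, against 3.21, 4.43 and 2.78 TPM in fruit. SHR (AT4G37650), which patterns the root ground tissue, had 14.2, 16.6 and 15.6 TPM in seed, against 1.15, 2.25 and 2.86 TPM in fruit. STM (AT1G62360), the meristem KNOX gene, was lower in seed at 3.12, 3.70 and 2.89 TPM, against 16.4, 9.60 and 11.8 TPM in fruit, with a change of -1.66 (SE 0.18, adjusted p = 8.13e-05). The auxin exporter PIN3 (AT1G70940) was lower in seed at 10.9, 13.3 and 11.5 TPM, against 64, 52.3 and 49.4 TPM in fruit.

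Of 13 genes of the stomatal lineage and guard cells 12 were tested, 6 being higher in seed and 5 lower, close to the shares of all genes. The genes plotted were picked with their values known, and all 5 that were lower reached the level for testing through fruit alone. SPCH (AT5G53210), the factor that starts the lineage, had 11.6, 9.62 and 8.14 TPM in seed, against 0.734, 1.26 and 0.816 TPM in fruit, with a change of 2.48 (SE 0.16, adjusted p = 4.16e-06). The receptor-like protein TMM (AT1G80080) had 27.5, 16.6 and 23.6 TPM in seed, against 1.92, 2.83 and 2.46 TPM in fruit. STOMAGEN (AT4G12970), a peptide that promotes stomata, had 7.80, 6.12 and 8.32 TPM in seed, against 0.584, 0.473 and 1.02 TPM in fruit. Lower in seed was FAMA (AT3G24140), which acts at the last division, at 0.288, 0.250 and 0.219 TPM, against 19.3, 14.8 and 19.0 TPM in fruit, with a change of -3.89 (SE 0.13, adjusted p = 1.73e-07). KAT1 (AT5G46240), the guard cell potassium channel, had 0.157, 0.250 and 0.206 TPM in seed, against 83.2, 48.1 and 60.6 TPM in fruit. The anion channel SLAC1 (AT1G12480) had 0.224, 0.143 and 0.110 TPM in seed, against 12.2, 10.9 and 8.22 TPM in fruit. Seed and fruit values overlapped for none of these 6 genes, which is a description, since they were picked with their values known. MYB60 (AT1G08810), also known from guard cells, was higher in seed at 33.8, 27.6 and 35.8 TPM, against 9.32, 10.3 and 6.57 TPM in fruit.

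**Figure D3:**
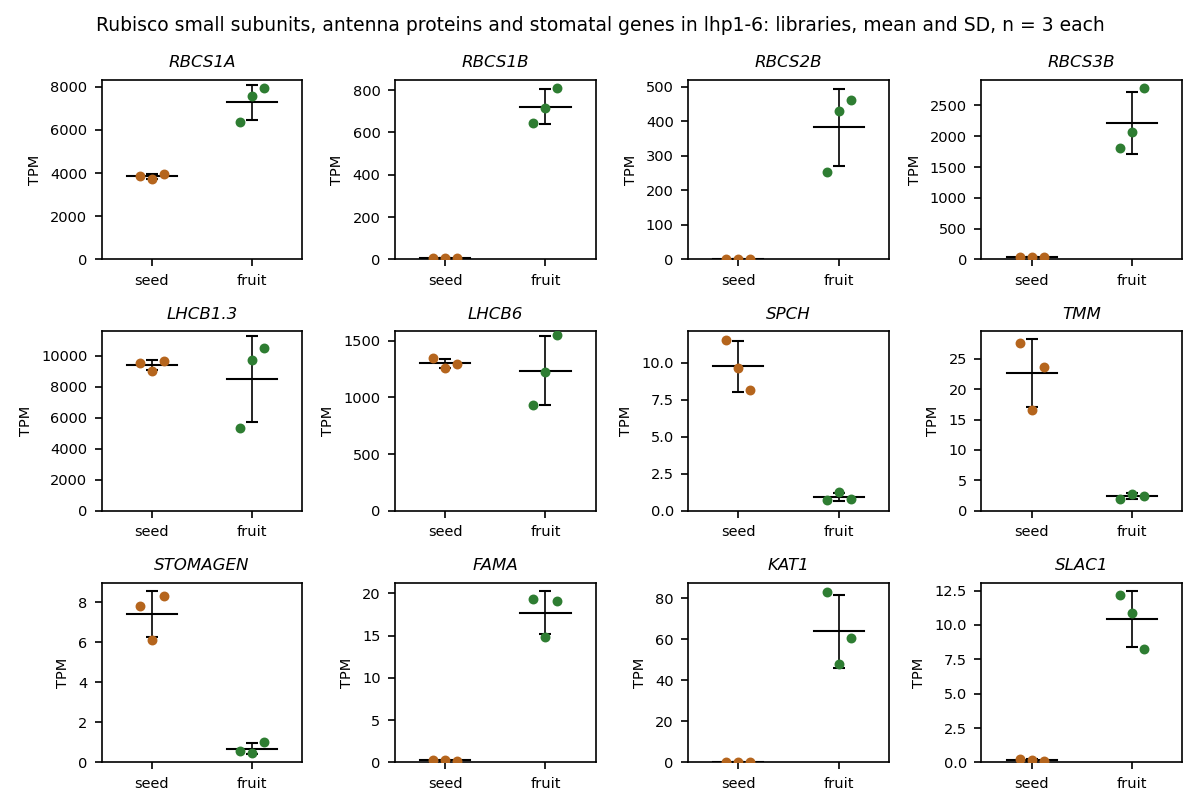
TPM in each of 3 seed (left) and 3 fruit (right) libraries of lhp1-6 for 4 Rubisco small subunit genes, 2 antenna protein genes and 6 stomatal genes, with the mean as a bar and the SD as whiskers. RBCS1A is at 3882, 3731 and 3952 TPM in seed while RBCS2B is below 1 TPM there, and SPCH, TMM and STOMAGEN are higher in seed while FAMA, KAT1 and SLAC1 are higher in fruit.

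Flavonoid genes, which pigment the seed coat, lay towards seed. Of 18 flavonoid and proanthocyanidin genes 17 were tested, 16 were higher in seed and 1 was lower, with a median of 2.04. TT4 (AT5G13930), chalcone synthase at the entry of the pathway, had 605, 648 and 614 TPM in seed, against 107, 114 and 103 TPM in fruit, with a change of 2.52 (SE 0.08, adjusted p = 1.52e-07). BAN (AT1G61720), the reductase that commits to proanthocyanidins, had 368, 413 and 386 TPM in seed, against 98.8, 85.8 and 70.4 TPM in fruit. The laccase TT10 (AT5G48100), which browns the coat, had 729.6, 753 and 732 TPM in seed, against 107, 137 and 106 TPM in fruit. The 3 libraries of each tissue lay close together for TT4. The flavonol synthase FLS1 (AT5G08640) had the largest change of the list at 2.99, with 230, 192 and 199 TPM in seed, against 23.0, 25.4 and 26.9 TPM in fruit. Mucilage genes were less uniform, 9 of 17 being higher and 5 lower. Replicate 2 was the highest library of both tissues for GL2 and MUM4. GL2 (AT1G79840), a homeodomain regulator of the coat epidermis, had 52.5, 74.6 and 61.7 TPM in seed, against 8.62, 16.3 and 11.1 TPM in fruit. MUM4 (AT1G53500), a rhamnose synthase, had 164, 202 and 156 TPM in seed, against 67.6, 95.2 and 71.0 TPM in fruit. AP2 (AT4G36920), which also acts in flowers, was lower in seed at 23.5, 28.1 and 23.1 TPM, against 76.6, 58.7 and 55.3 TPM in fruit.

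Of 12 endosperm genes 7 were tested, with 5 higher in seed and 2 lower, and both of those that were lower reached the level for testing through fruit alone. The sucrose carrier SUC5 (AT1G71890) had 111, 123 and 116 TPM in seed, against 12.1, 19.7 and 12.8 TPM in fruit. ZOU (AT1G49770), which drives the breakdown of the endosperm, had 22.1, 23.4 and 18.7 TPM in seed, against 3.04, 5.38 and 4.38 TPM in fruit. IKU2 (AT3G19700), a kinase gene of early endosperm, was lower in seed at 0.0152, 0 and 0 TPM, against 9.16, 5.06 and 7.00 TPM in fruit. AGL62 (AT5G60440), which delays endosperm cellularisation, was low in both tissues at 0.901, 0.580 and 0.634 TPM in seed, against 3.25, 2.53 and 2.70 TPM in fruit, and lower in seed.

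Abscisic acid genes differed in direction by step and by isoform. Among the 8 tested synthesis genes 3 were higher in seed and 5 lower, close to the shares of all genes. The 9-cis-epoxycarotenoid dioxygenases NCED6 (AT3G24220) and NCED9 (AT1G78390), the committed step, were higher in seed. NCED6 had 44.1, 58.7 and 41.2 TPM in seed, against 5.76, 12.4 and 6.70 TPM in fruit, with a change of 2.45 (SE 0.26, adjusted p = 5.96e-05), and NCED9 had 47.3, 48.5 and 38 TPM in seed, against 6.57, 11 and 6.36 TPM in fruit, with a change of 2.38 (SE 0.20, adjusted p = 1.58e-05). Their stress-induced relative NCED3 (AT3G14440) was lower in seed at 0.520, 1.08 and 0.380 TPM, against 3.14, 4.46 and 3.78 TPM in fruit. The upstream epoxidase ABA1 (AT5G67030) was lower in seed at 31.8, 28.3 and 31.9 TPM, against 349, 340.3 and 407 TPM in fruit, with a change of -3.53 (SE 0.09, adjusted p = 6.72e-08). The final oxidase AAO3 (AT2G27150) was lower in seed at 7.40, 6.89 and 6.62 TPM, against 26.9, 29.4 and 20.7 TPM in fruit. ABA2 (AT1G52340), the dehydrogenase of the step before, was higher in seed at 43.6, 36.9 and 42.1 TPM, against 25.8, 24.2 and 26.9 TPM in fruit.

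The hydroxylases that break down abscisic acid parted too. CYP707A1 (AT4G19230) was higher in seed at 8.61, 9.39 and 8.27 TPM, against 2.93, 3.58 and 2.04 TPM in fruit. CYP707A2 (AT2G29090) was lower in seed at 0.519, 0.300 and 0.223 TPM, against 6.97, 9.37 and 5.06 TPM in fruit, with a change of -2.56 (SE 0.20, adjusted p = 1.2e-05). CYP707A4 (AT3G19270) was listed at 0 in each seed library and at 5.52, 3.99 and 1.49 TPM in fruit. BGLU33 (AT2G32860), a glucosidase that acts on conjugated abscisic acid, was listed at 0 in each seed library as well, against 11, 22.0 and 12.9 TPM in fruit. Of the 7 tested breakdown and conjugation genes 1 was higher in seed and 5 were lower, and 3 reached the level for testing through fruit alone. CYP707A2 and CYP707A4 were tested through fruit alone, so they had to come out lower in seed. Of the 12 transport genes 8 were tested, with 4 higher in seed and 2 lower. NPF4.5 (AT1G27040) had 78.2, 70.3 and 88.9 TPM in seed, against 12.5, 14.2 and 12.7 TPM in fruit. ABCG31 (AT2G29940) had 11.3, 10.6 and 12.8 TPM in seed, against 3.38, 3.68 and 3.52 TPM in fruit, and the exporter ABCG25 (AT1G71960) did not pass the test at 30.1, 30.8 and 27.2 TPM in seed, against 38.5, 31.3 and 32.4 TPM in fruit (adjusted p = 0.089). The importer NPF4.6 (AT1G69850) was lower in seed at 33.3, 29.7 and 31.9 TPM, against 99.4, 78.0 and 87.0 TPM in fruit. The exporter DTX50 (AT5G52050), tested through fruit alone, was lower in seed at 0.242, 0.173 and 0.143 TPM, against 4.73, 7.12 and 5.21 TPM in fruit.

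Perception and signalling of abscisic acid lay almost wholly towards fruit: 21 of 23 tested genes were lower in seed and 1 was higher, with a median of -1.79. The receptor PYL8 (AT5G53160) had 8.87, 10.2 and 9.02 TPM in seed, against 48.5, 50.8 and 57.4 TPM in fruit, with a change of -2.36 (SE 0.09, adjusted p = 4.01e-07). The phosphatase ABI1 (AT4G26080), a co-receptor, had 24.4, 23.6 and 22.2 TPM in seed, against 129, 129 and 141 TPM in fruit. The phosphatase HAI2 (AT1G07430) had 1.93, 2.06 and 2.23 TPM in seed, against 92.2, 116 and 84.7 TPM in fruit. SNRK2.3 (AT5G66880), a kinase that the phosphatases hold back, had 13.7, 15.8 and 16.8 TPM in seed, against 67.1, 69.7 and 60.7 TPM in fruit. Fruit values lay above seed values in each of these. The exception was the receptor PYL2 (AT2G26040), higher in seed at 5.08, 7.84 and 5.85 TPM, against 1.89, 2.17 and 1.94 TPM in fruit.

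Gibberellin genes also differed in direction by isoform, with 7 of 10 tested synthesis genes higher in seed and 3 lower. Of these 10 genes 1 reached the level for testing through seed alone and 1 through fruit alone. GA20OX3 (AT5G07200) had 441, 408 and 408 TPM in seed, against 60.0, 74.7 and 44.8 TPM in fruit, with a change of 2.82 (SE 0.17, adjusted p = 2.8e-06). GA3OX4 (AT1G80330), an enzyme of the last step, had 45.4, 39.4 and 46.5 TPM in seed, against 5.09, 5.29 and 4.44 TPM in fruit. Another enzyme of the last step lay towards fruit: GA3OX1 (AT1G15550) had 0.242, 0.602 and 0.341 TPM in seed, against 62.2, 71.8 and 78.8 TPM in fruit, with a change of -5.69 (SE 0.14, adjusted p = 4.74e-08). GA20OX2 (AT5G51810) was lower in seed at 18.9, 13.4 and 16.1 TPM, against 45.8, 39.3 and 53.8 TPM in fruit. Of 7 inactivating GA2OX genes 3 were tested, and GA2OX1 (AT1G78440) was lower in seed at 0.0401, 0.0411 and 0.0396 TPM, against 4.53, 3.64 and 4.79 TPM in fruit. GA3OX1 and GA2OX1 were tested through fruit alone, so they had to come out lower in seed. Auxin synthesis had 6 of 14 genes tested, 5 higher in seed and 1 lower. TAA1 (AT1G70560), the first enzyme, had 23.1, 25.1 and 22.9 TPM in seed, against 3.26, 4.32 and 3.14 TPM in fruit. The monooxygenase YUC10 (AT1G48910) had 17.2, 10.6 and 23.9 TPM in seed, against 2.65, 2.27 and 1.13 TPM in fruit.

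**Figure D4:**
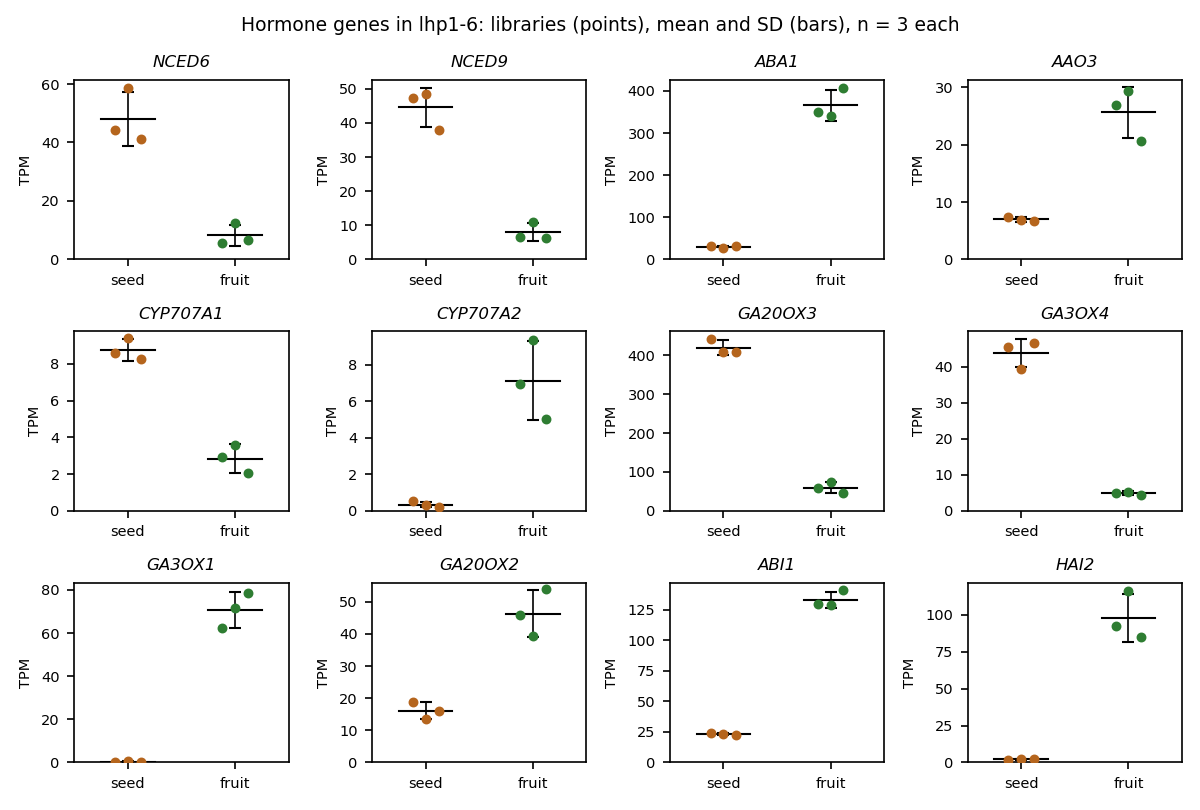
TPM in each of 3 seed (left) and 3 fruit (right) libraries of lhp1-6 for 8 enzymes of abscisic acid and gibberellin synthesis, 2 abscisic acid hydroxylases and 2 phosphatases of abscisic acid signalling, with the mean as a bar and the SD as whiskers. NCED6, NCED9, GA20OX3 and GA3OX4 are higher in seed, and ABA1, CYP707A2, GA3OX1 and HAI2 are higher in fruit.

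Dormancy genes had 7 of 11 tested members higher in seed and 2 lower. DOG1 (AT5G45830), the main dormancy locus, had 11.9, 4.31 and 15.3 TPM in seed, against 1.44, 1.61 and 1.47 TPM in fruit, with a change of 2.05 (SE 0.38, adjusted p = 0.00132), with seed replicate 2 far below the other seed libraries but above all fruit libraries. Without that library the change of DOG1 was 2.54 (adjusted p = 1.3e-05). MFT (AT1G18100), a relative of FT that acts in seed germination, had 765, 576 and 662 TPM in seed, against 95.9, 82.5 and 53.4 TPM in fruit, with a change of 3.13 (SE 0.21, adjusted p = 5.51e-06). RDO5 (AT4G11040), a phosphatase-like dormancy factor, had 18.6, 16.4 and 18.1 TPM in seed, against 1.22, 3.33 and 2.08 TPM in fruit. All seed values of MFT and RDO5 were above all fruit values. The DELLA gene RGL2 (AT3G03450), a brake on germination, had 36.3, 32.3 and 34.8 TPM in seed, against 13.6, 15.5 and 16.5 TPM in fruit. PIL5 (AT2G20180), a light-regulated bHLH repressor of germination, had 6.89, 4.46 and 7.46 TPM in seed, against 1.94, 3.05 and 3.13 TPM in fruit.

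Photosynthesis genes were plentiful in both tissues, with a balance that differed within families. Of 31 nuclear photosynthesis genes 22 were lower in seed, 1 was higher and 8 did not pass, with a median of -0.92. The antenna genes LHCB6 (AT1G15820), at 1345, 1261 and 1291 TPM in seed, against 936, 1221 and 1549 TPM in fruit, and LHCB1.3 (AT1G29930), at 9532, 9023 and 9656 TPM in seed, against 5344, 9706 and 10480 TPM in fruit, did not pass the test (adjusted p = 0.652 and 0.668), and fruit replicate 1 was the lowest fruit library for both. Their direction is not fixed: LHCB1.3 changed by 0.20 as deposited and by -0.77 after quantile normalisation, and both changes turned to lower in seed without fruit replicate 1. In contrast, Rubisco activase RCA (AT2G39730) had 187, 183 and 175 TPM in seed, against 2210, 2443 and 2773 TPM in fruit, with a change of -3.75 (SE 0.12, adjusted p = 1.53e-07). The small subunit genes of Rubisco spread widely. RBCS1A (AT1G67090) had 3882, 3731 and 3952 TPM in seed, against 6378, 7564 and 7921 TPM in fruit, with a change of -0.91 (SE 0.28, adjusted p = 0.0161). RBCS1B (AT5G38430) had 6.08, 4.98 and 6.22 TPM in seed, against 644, 715 and 808 TPM in fruit. RBCS2B (AT5G38420) had 0.450, 0.749 and 0.499 TPM in seed, against 254, 432 and 463 TPM in fruit. RBCS3B (AT5G38410) had 36.7, 46.7 and 37.9 TPM in seed, against 1809, 2064 and 2776 TPM in fruit. The changes of these 3 genes were -6.74, -7.89 and -5.73. The B genes are close copies of each other and LHCB1 genes likewise, so the split of reads among them is uncertain. The RBCS1A call was lost without seed replicate 1 (adjusted p = 0.0681), without seed replicate 3 (adjusted p = 0.0638), without fruit replicate 3 (adjusted p = 0.0539) and with no filter (adjusted p = 0.118).

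Genes of fruit patterning lay mostly towards fruit. FUL (AT5G60910), the MADS-box gene of the valves, had 0.363, 0.537 and 0.358 TPM in seed, against 169.7, 162 and 142 TPM in fruit, with a change of -6.80 (SE 0.10, adjusted p = 1.45e-08). IND (AT4G00120), the bHLH gene of the valve margin, had 0.892, 0.457 and 0.778 TPM in seed, against 24.9, 25.4 and 25.4 TPM in fruit. Its partner ALC (AT5G67110) had 5.31, 8.84 and 6.65 TPM in seed, against 375, 369.9 and 364 TPM in fruit. The pectinase ADPG1 (AT3G57510), which loosens the dehiscence zone, had 0.722, 0.907 and 0.453 TPM in seed, against 302, 244 and 266 TPM in fruit. Seed values of these 4 genes stayed far below the fruit values. SHP1 (AT3G58780), which acts in valve margin and seed coat, was lower in seed at 24.6, 26.2 and 23.9 TPM, against 53.5, 62.7 and 50.5 TPM in fruit. Its close relative SHP2 (AT2G42830) was higher in seed at 138, 156 and 145 TPM, against 110.2, 103 and 99.8 TPM in fruit. Of the 8 tested genes of this list 6 were lower in seed and 2 higher, and 3 reached the level for testing through fruit alone.

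Floral MADS-box genes had 8 of 11 tested members lower in seed. SEP3 (AT1G24260), a partner in floral organ complexes, had 21.3, 26.2 and 19.1 TPM in seed, against 349, 309 and 316 TPM in fruit, with a change of -3.82 (SE 0.12, adjusted p = 1.32e-07). SEP4 (AT2G03710) had 1.52, 1.26 and 1.21 TPM in seed, against 44.3, 53.2 and 49.4 TPM in fruit. AP3 (AT3G54340), the petal and stamen gene, was higher in seed at 49.6, 58.8 and 53.2 TPM, against 11.8, 12.7 and 12 TPM in fruit, with a change of 2.06 (SE 0.08, adjusted p = 4.57e-07). Its dimer partner PI (AT5G20240) was lower in seed at 2.06, 2.93 and 1.43 TPM, against 12.6, 12.7 and 13.8 TPM in fruit. The seed identity gene STK (AT4G09960) was called higher in seed by a small margin at 31.1, 30.4 and 30.4 TPM in seed, against 29.0, 23.5 and 24.1 TPM in fruit, with a change of 0.26 (SE 0.09, adjusted p = 0.0322). That call was lost in 1 fit over all 12 libraries (adjusted p = 0.122) and without any 1 of seed replicates 1, 2 and 3 and fruit replicates 2 and 3 (adjusted p from 0.0632 to 0.0951). FT (AT1G65480), the mobile flowering signal, was among the abundant fruit transcripts, with 7.77, 14.6 and 7.24 TPM in seed, against 2008, 2054 and 1749 TPM in fruit, with a change of -7.54 (SE 0.23, adjusted p = 1.24e-07). FLC (AT5G10140), a repressor of FT, had 69.0, 61.0 and 59.4 TPM in seed, against 20.4, 28.4 and 19.9 TPM in fruit, with a change of 1.44 (SE 0.14, adjusted p = 3.82e-05). SVP (AT2G22540), another repressor, was lower in seed at 2.85, 4.36 and 2.49 TPM, against 32.3, 23.2 and 25.8 TPM in fruit. Of 8 tested flowering time genes 6 were lower in seed and 2 higher.

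Secondary wall genes gave the second lowest list median, at -4.72, with 14 of 16 tested genes lower in seed and 1 higher, although 10 of them reached the level for testing through fruit alone. NST1, a NAC switch for wall thickening in valves, was listed at 0 in seed and at 53.0, 45.5 and 52.0 TPM in fruit. CESA4 (AT5G44030), a cellulose synthase of secondary walls, had 0.293, 0.243 and 0.316 TPM in seed, against 289, 189 and 328 TPM in fruit, with a change of -7.68 (SE 0.19, adjusted p = 5.48e-08). The lignin laccase LAC4 (AT2G38080) had 0.188, 0.265 and 0.162 TPM in seed, against 513, 333 and 525 TPM in fruit. Fruit replicate 2 was the lowest fruit library for NST1, CESA4 and LAC4 alike. IRX9 (AT2G37090), a xylan gene, was higher in seed at 97.0, 91.3 and 74.6 TPM, against 57.6, 59.6 and 44.6 TPM in fruit. Lignin monomer genes were lower in seed for 10 of 11 members. PAL1 (AT2G37040), the entry enzyme, had 57.5, 62.6 and 53.5 TPM in seed, against 958, 611 and 908 TPM in fruit, with a change of -3.79 (SE 0.17, adjusted p = 6.98e-07). CAD4 (AT3G19450) was the exception at 130.5, 139 and 127 TPM in seed, against 103, 79.1 and 109 TPM in fruit.

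Surface and transport genes differed by member. Wax genes were lower in seed for 8 of 9 tested members, with CER3 (AT5G57800), of the alkane-forming complex, at 17.1, 18.1 and 16.2 TPM in seed, against 1044, 819 and 962 TPM in fruit, with a change of -5.69 (SE 0.10, adjusted p = 1.91e-08). CER10 (AT3G55360), a reductase of fatty acid elongation, was higher in seed at 228, 239.5 and 219.6 TPM, against 73.2, 70.4 and 61.9 TPM in fruit. All 5 phloem genes were lower in seed, and the companion cell sucrose carrier SUC2 (AT1G22710) had 208, 149 and 200 TPM in seed, against 645, 582 and 534 TPM in fruit. Sugar exporters differed by member: SWEET15 (AT5G13170) had 269.9, 221 and 256 TPM in seed, against 45.4, 43.1 and 31.6 TPM in fruit, with a change of 2.62 (SE 0.15, adjusted p = 1.9e-06). SWEET10 (AT5G50790) had 114, 129 and 132 TPM in seed, against 22.2, 22.4 and 16.1 TPM in fruit. SWEET4 (AT3G28007) had 0.621, 1.57 and 0.980 TPM in seed, against 66.8, 117 and 73.8 TPM in fruit. The amino acid carrier UMAMIT25 (AT1G09380) was higher in seed at 462, 398 and 442 TPM, against 66.9, 70.1 and 50.8 TPM in fruit. AAP2 (AT5G09220), a phloem loader, was lower in seed at 5.00, 6.46 and 4.79 TPM, against 1506, 1391 and 1482 TPM in fruit, with a change of -7.84 (SE 0.11, adjusted p = 1.38e-08). AAP1 (AT1G58360), an importer of the embryo, was not called different at 71.7, 70.8 and 70.8 TPM in seed, against 63.1, 103 and 48.1 TPM in fruit (adjusted p = 0.812).

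Glucosinolate synthesis had the lowest median of the lists, -6.52, and all 13 tested genes were lower in seed. MYB28 (AT5G61420), the main activator of the aliphatic branch, had 2.85, 3.75 and 2.81 TPM in seed, against 469.7, 434 and 414 TPM in fruit, with a change of -6.74 (SE 0.10, adjusted p = 1.52e-08). BCAT4 (AT3G19710), which starts the lengthening of methionine, had 3.73, 5.20 and 2.47 TPM in seed, against 1342, 1119 and 1251 TPM in fruit. MAM1 (AT5G23010), the synthase of that lengthening, had 4.18, 5.59 and 2.86 TPM in seed, against 1264, 1071 and 1260 TPM in fruit. CYP83A1 (AT4G13770), of the core pathway, had 3.39, 4.74 and 2.47 TPM in seed, against 1219, 1107 and 1231 TPM in fruit, with a change of -8.06 (SE 0.17, adjusted p = 2.9e-08). Summed over the list the level was 45.5, 52.2 and 39.6 TPM in seed, against 6754, 5622 and 6363 TPM in fruit. The carriers that move glucosinolates into seeds differed from each other: GTR1 (AT3G47960) had 42.9, 36.3 and 39.9 TPM in seed, against 48.8, 45.2 and 44.6 TPM in fruit, a small change (-0.22, adjusted p = 0.0419), and GTR2 (AT5G62680) had 11.2, 10.9 and 11.1 TPM in seed, against 168, 122 and 124 TPM in fruit. The GTR1 call was lost when any single library except seed replicate 1 was left out (adjusted p from 0.0577 to 0.119). It was also lost after quantile normalisation, in TPM without storage, oil body, late embryogenesis and organelle genes, in 1 fit over all 12 libraries, with array weights and with no mean trend (adjusted p from 0.063 to 0.817). TGG2 (AT5G25980), a myrosinase, had 0.107, 0.0273 and 0.105 TPM in seed, against 349, 493 and 594 TPM in fruit, with a change of -8.76 (SE 0.18, adjusted p = 2.83e-08). TGG1 and TGG2 are close copies, so the split of reads between them is uncertain.

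Genes of senescence and of the cold response lay towards fruit, and defence genes were less uniform. Of the 11 senescence and chlorophyll breakdown genes 10 were lower in seed, led by SAG12 (AT5G45890), a protease of ageing tissue, at 0.121, 0.619 and 0.318 TPM in seed, against 578, 155 and 352 TPM in fruit, with a change of -7.89 (SE 0.43, adjusted p = 1.65e-06). The chlorophyll breakdown genes were lower in seed by less, NYC1 (AT4G13250) at 89.1, 80.2 and 84.2 TPM in seed, against 534, 379 and 486 TPM in fruit and PAO (AT3G44880) at 66.8, 56.0 and 62.5 TPM in seed, against 179, 159.8 and 156 TPM in fruit. Cold response genes were lower in seed for all 11 tested members, with KIN2 (AT5G15970) at 1.47, 2.37 and 0.899 TPM in seed, against 378, 473 and 256 TPM in fruit and RD29A (AT5G52310) at 4.98, 6.61 and 4.17 TPM in seed, against 218, 418 and 95.4 TPM in fruit. COR47 (AT1G20440), a dehydrin, had 37.7, 50.4 and 33.4 TPM in seed, against 290.3, 357 and 272 TPM in fruit. Fruit replicate 2 was the highest fruit library for KIN2, RD29A and COR47, and all fruit values lay above all seed values. KIN2 has a close copy, KIN1, so its value is uncertain. Through fruit alone, 4 of the 11 tested cold response genes and 2 of the 11 senescence genes reached the level for testing. Defence genes had 6 of 10 tested members lower in seed and 2 higher. LOX2 (AT3G45140), of jasmonate synthesis, had 0.0162, 0.0828 and 0.0798 TPM in seed, against 89.9, 102 and 203 TPM in fruit. PR5 (AT1G75040), a pathogen response gene, had 0, 0 and 0.0948 TPM in seed, against 108, 38.1 and 10.4 TPM in fruit. The fruit libraries differed widely among themselves for PR5, and 5 of the 10 tested defence genes reached the level for testing through fruit alone. Those 5 had to be lower in seed, so the defence count gives no direction for the list.

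All 12 clock genes were lower in seed, with a median of -1.50, morning and evening genes alike. CCA1 (AT2G46830), a morning repressor, had 5.26, 4.99 and 4.52 TPM in seed, against 28.0, 25.6 and 20.4 TPM in fruit, with a change of -2.11 (SE 0.13, adjusted p = 3.03e-06). TOC1 (AT5G61380), an evening repressor, had 45.3, 50.2 and 48.8 TPM in seed, against 124, 148 and 130.3 TPM in fruit. ELF4 (AT2G40080), of the evening complex, had 18.8, 22.5 and 19.7 TPM in seed, against 370.1, 528 and 350 TPM in fruit. The time of day of the dissection is not given in the sources used here. Pollen genes were lower in seed for 6 of 7 members. VGD1 (AT2G47040), a pectin methylesterase of pollen tubes with a close copy, had 1.05, 2.31 and 2.04 TPM in seed, against 62.4, 52.2 and 64.8 TPM in fruit. The arabinogalactan protein AGP6 (AT5G14380) had 1.17, 1.72 and 2.26 TPM in seed, against 31.6, 18.6 and 28.2 TPM in fruit. The summed pollen list stood at 5.24, 9.10 and 9.19 TPM in seed, against 224, 168 and 217 TPM in fruit.

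Chromatin genes of the system to which LHP1 belongs were moderately higher in seed, 16 of 20 tested members being higher and 1 lower, with a median of 0.81. FIE (AT3G20740), a core Polycomb subunit, had 59.8, 71.9 and 62.9 TPM in seed, against 23.6, 25.5 and 23.7 TPM in fruit, with a change of 1.38 (SE 0.09, adjusted p = 3.51e-06). The catalytic subunits parted, CLF (AT2G23380) being higher in seed at 12.4, 13.9 and 12.6 TPM, against 6.42, 6.79 and 7.32 TPM in fruit and SWN (AT4G02020) lower in seed at 35.6, 33.4 and 33.1 TPM, against 70.2, 72.3 and 63.8 TPM in fruit, with a change of -0.99 (SE 0.07, adjusted p = 8.94e-06). RING1A (AT5G44280), a ubiquitin ligase of the second Polycomb complex, had 25.4, 23.4 and 23.6 TPM in seed, against 8.95, 8.58 and 8.41 TPM in fruit. BMI1A (AT2G30580), its partner, had 30.2, 27.6 and 27.8 TPM in seed, against 9.83, 8.85 and 9.59 TPM in fruit. ULT1 (AT4G28190), a trithorax factor, had the largest change of the list, with 60.3, 68.2 and 59.9 TPM in seed, against 7.81, 12.2 and 7.90 TPM in fruit, with a change of 2.66 (SE 0.16, adjusted p = 2.85e-06). The cell division list, whose 19 members were all higher in seed, lay in the same direction with a larger median of 2.44. Whether the 2 lists vary together was not tested.

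Over all genes tested beyond 1 log2 unit, with no overlap and at least 20 TPM in the higher tissue, the 12 largest changes towards seed ran from 3.31 to 3.44 and the 12 towards fruit from -9.53 to -8.05. The 12 towards seed stood from 9.98 to 11.3 times higher there, just under the 12 times that 0 genes exceeded. Their order within so narrow a range is a description, and what sets that limit was not tested. The largest towards seed was that of AT1G62500, a protein of the lipid-transfer and seed storage albumin family, at 1336, 918 and 1370 TPM in seed, against 107, 119 and 101 TPM in fruit, with a change of 3.44 (SE 0.17, adjusted p = 9.11e-07). PDF1 (AT2G42840), an epidermis protein, had 421, 494 and 430 TPM in seed, against 28.0, 54.4 and 48.1 TPM in fruit. ACP5 (AT5G27200), an acyl carrier protein, had 814, 669 and 832 TPM in seed, against 63.5, 83.2 and 78.8 TPM in fruit. The others were OLEO2, LTP2, MEE26, ATS3, EPR1, AT2G10940, AT3G63040, AT1G04660 and AT1G65090. The largest change towards fruit belonged to AT1G62510, of the same protein family and the next locus in number, at 2.13, 2.36 and 1.98 TPM in seed, against 2612, 2638 and 1843 TPM in fruit, with a change of -9.53 (SE 0.14, adjusted p = 1.45e-08). AT1G23130, of a lipid transport superfamily, had 0.0623, 0.510 and 0.675 TPM in seed, against 870.2, 942 and 901 TPM in fruit. CTL2 (AT3G16920), a chitinase-like protein, had 0.131, 0.0334 and 0.193 TPM in seed, against 536, 333 and 506 TPM in fruit. MAP70-5 (AT4G17220), a microtubule protein, had 0, 0 and 0.0501 TPM in seed, against 244, 263 and 371 TPM in fruit. AT4G15160, AT1G22480, AT3G28270 and AT2G36710 made up the 12 with TGG2, LAC4, CYP83A1 and BCAT4. Among the most abundant fruit transcripts were the metallothioneins MT2B (AT5G02380), at 987, 863 and 1134 TPM in seed, against 9107, 8376 and 7977 TPM in fruit, and MT3 (AT3G15353), at 95.0, 102 and 113 TPM in seed, against 6121, 5647 and 5430 TPM in fruit, and the lipid transfer protein LTP4 (AT5G59310), at 2297, 3017 and 1881 TPM in seed, against 11050, 12670 and 9565 TPM in fruit. AT2G01021, annotated as an uncharacterized protein, was among the 10 most abundant in both tissues at 15750, 41120 and 16430 TPM in seed, against 13670, 9547 and 9195 TPM in fruit, seed replicate 2 being the highest library. It did not pass the test, as reported (adjusted p = 0.145) or without that replicate (adjusted p = 0.286).

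The tissue change of lhp1-6 closely followed that of Col-0. Across the 19203 genes the changes in the 2 genotypes had a Pearson correlation of 0.965, given as a description since genes are not independent. Of 14194 genes called in both genotypes, 99.3% changed in the same direction. The difference of the change, lhp1-6 minus Col-0, was tested over 19946 genes. The seed minus fruit change was higher in lhp1-6 for 343 genes (1.72%) and lower for 757 (3.80%). These counts rest strongly on the libraries and on the scaling. Col-0 fruit replicate 1 stood apart, its 1st percentile of fruit over seed level being 23.3% where the other Col-0 fruit libraries had 3.61% and 5.20%. Without that library 1123 genes were higher and 2962 lower, which included all 343 and all 757 called with it. Rescaling by median of ratios left 373 higher and 374 lower, and with the replicate block 169 were higher and 328 lower. Leaving out lhp1-6 seed replicate 1 gave 149 higher and 309 lower, and leaving out lhp1-6 seed replicate 3 gave 142 and 285. Without lhp1-6 fruit replicate 1 the numbers were 255 and 483. Without Col-0 seed replicate 1, 2 or 3 they were 217 and 466, 157 and 317, and 152 and 285.

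**Figure D5:**
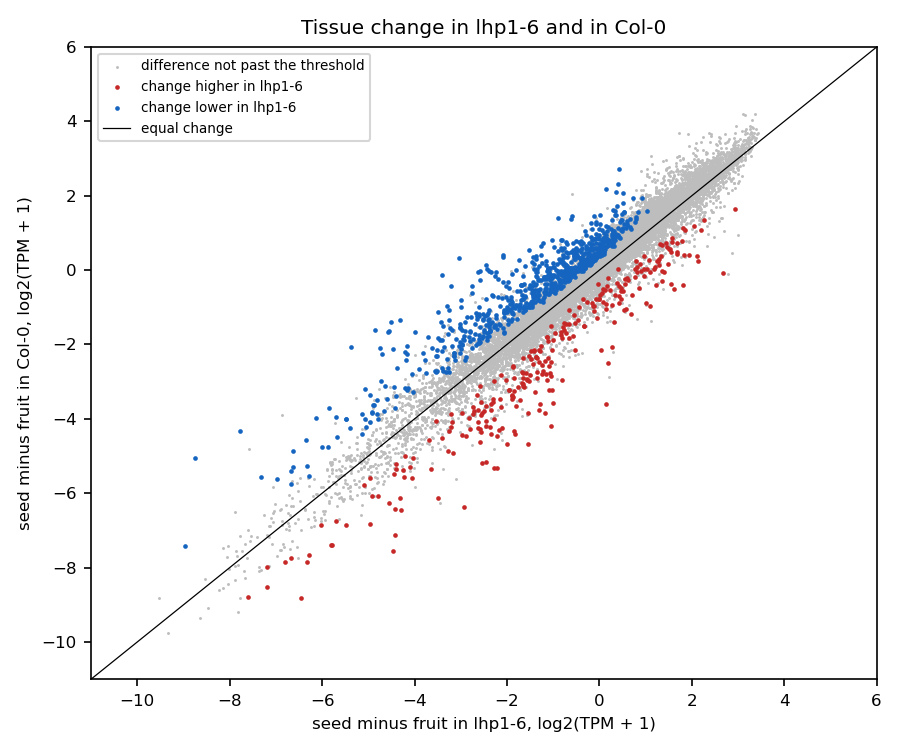
Seed minus fruit change in log2(TPM + 1) in lhp1-6 (x axis) against Col-0 (y axis) for the 19203 genes, with genes whose difference passed the test in red (change higher in lhp1-6) and blue (change lower in lhp1-6). Most genes lie along the line of equal change, and the coloured genes lie on both sides of it.

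Of the 11 floral MADS-box genes tested for the difference 2 had a higher seed minus fruit change in lhp1-6 than in Col-0 and 3 a lower one. Of the 8 flowering time genes 2 had a higher change and 1 a lower one. Over all genes tested these shares were 1.72% and 3.80%. A lower change can come with a higher level in lhp1-6 fruit, as for SEP3. AGL19 (AT4G22950), a MADS-box activator of flowering, changed by -2.24 in lhp1-6, where it had 0.899, 0.613 and 0.886 TPM in seed, against 8.84, 7.81 and 6.03 TPM in fruit, and by -0.06 in Col-0, where it had 0.0896, 0.0888 and 0.134 TPM in seed, against 0.239, 0.147 and 0.0607 TPM in fruit, a difference of -2.19 (SE 0.19, adjusted p = 0.000324). AGL19 stood above 6 TPM in each lhp1-6 fruit library and below 1 TPM in each Col-0 fruit library. SEP3 changed by -3.82 in lhp1-6 and by -2.24 in Col-0, where it had 35.3, 41.1 and 42.3 TPM in seed, against 194, 195 and 180.3 TPM in fruit, a difference of -1.58 (SE 0.16, adjusted p = 0.000634). SEP4 differed in the other direction: Col-0 libraries held 0.227, 0.225 and 0.227 TPM in seed, against 81.7, 108 and 131 TPM in fruit, a difference of 2.01 (SE 0.21, adjusted p = 0.000758). SOC1 (AT2G45660), an integrator of flowering signals, had in lhp1-6 6.30, 8.63 and 7.52 TPM in seed, against 47.4, 54.4 and 42.4 TPM in fruit, and in Col-0 3.55, 2.60 and 3.40 TPM in seed, against 53.6, 61.3 and 63.4 TPM in fruit, a difference of 1.32 (SE 0.19, adjusted p = 0.00411). For SHP1 the Col-0 libraries had 30.6, 32.9 and 34.0 TPM in seed, against 32.1, 36.3 and 40.5 TPM in fruit, with overlapping tissues, a difference of -0.97 (SE 0.14, adjusted p = 0.00443).

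Of the 13 tested glucosinolate synthesis genes and the 14 tested sugar and amino acid transport genes, 2 each had a called difference. Of all genes tested, 1.72% were called with a higher change in lhp1-6 and 3.80% with a lower one. Of 10 wax genes 3 had a higher change and 1 a lower one, and of 8 abscisic acid synthesis genes 2 had a higher one. Of 8 fruit patterning genes 1 had a higher change and 3 a lower one. The 8 storage protein and 19 cell division genes had 0 calls. MYB29 (AT5G07690), an aliphatic glucosinolate activator, was listed at 0 in each seed library of both genotypes, and had 46.0, 28.6 and 51.0 TPM in lhp1-6 fruit, against 5.81, 3.04 and 1.73 TPM in Col-0 fruit, a difference of -3.31 (SE 0.41, adjusted p = 0.00206). The wax ester synthase gene WSD1 (AT5G37300) had in lhp1-6 0.0255, 0.0261 and 0.0504 TPM in seed, against 4.25, 4.52 and 5.21 TPM in fruit, and in Col-0 0.107, 0.0265 and 0 TPM in seed, against 27.6, 52.0 and 34.2 TPM in fruit, a difference of 2.73 (SE 0.26, adjusted p = 0.000626). The amino acid exporter UMAMIT14 (AT2G39510) was lower in seed in lhp1-6 at 26.9, 34.3 and 29.4 TPM in seed, against 51.4, 52.1 and 58.2 TPM in fruit, and higher in seed in Col-0 at 35.4, 27.7 and 43.8 TPM in seed, against 20.3, 16.3 and 22.9 TPM in fruit, a difference of -1.62 (SE 0.23, adjusted p = 0.004). NCED3 had in Col-0 1.77, 1.26 and 1.25 TPM in seed, against 22.1, 119 and 84.9 TPM in fruit, so that its change was smaller in lhp1-6, a difference of 3.14 (SE 0.67, adjusted p = 0.0248). That call was lost with the replicate block (adjusted p = 0.0591), with that block and median-of-ratios rescaling (adjusted p = 0.0715) and with a pseudocount of 0.1 (adjusted p = 0.0607). It was also lost without any 1 of lhp1-6 seed replicates 1 and 3, lhp1-6 fruit replicate 1, Col-0 seed replicates 2 and 3 and Col-0 fruit replicate 3 (adjusted p from 0.0519 to 0.0681). LSH10 (AT2G42610), of a family of light-dependent growth genes, had in lhp1-6 17.6, 17.3 and 13.2 TPM in seed, against 41.5, 39.3 and 39.4 TPM in fruit, and in Col-0 0.0452, 0 and 0.0902 TPM in seed, against 11.1, 14.5 and 10.1 TPM in fruit, a difference of 2.33 (SE 0.20, adjusted p = 0.000298). AT5G54360, a C2H2-like zinc finger protein, had in lhp1-6 0.129, 0.0662 and 0.0638 TPM in seed, against 10.6, 12.7 and 8.53 TPM in fruit, and in Col-0 0, 0 and 0 TPM in seed, against 0.0724, 0.149 and 0.0918 TPM in fruit, a difference of -3.26 (SE 0.18, adjusted p = 3.56e-05). GATA13 (AT2G28340), a GATA factor, had in lhp1-6 0.980, 1.11 and 0.644 TPM in seed, against 6.42, 8.01 and 6.87 TPM in fruit, and in Col-0 0.342, 0.339 and 0.399 TPM in seed, against 0.0609, 0 and 0 TPM in fruit, a difference of -2.50 (SE 0.17, adjusted p = 6.63e-05). For AT5G54360 and GATA13 the lhp1-6 fruit libraries held the highest values of the 12.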

How the data were processed

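Bulk RNA-seq of 12 libraries was read from the deposited tables of TPM per gene, 1 per library. Per the labels' protocols the RNA was purified on columns and sequenced as 100 bp paired ends. Per the submitters' processing notes the authors trimmed reads with cutadapt 1.9.1, aligned them to TAIR10 with STAR 2.5 and counted them with featureCounts, whose version, strand setting and treatment of reads that match several genes are not given in the sources used here. TPM keep no depth per library, so no interval from counting can be given. The listed genes of a library summed to between 977751 and 986706 TPM.

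Libraries were grouped by the genotype and tissue in their labels. Genes at 1 TPM or more in at least 3 of the 6 lhp1-6 libraries were tested on log2(TPM + 1) by limma 3.58.1 (R 4.3.3), with a mean trend and Benjamini-Hochberg adjustment over all genes tested (threshold 0.05), first for any change and then, with limma's treat, for a change beyond 1 log2 unit. The difference between genotypes was the interaction over all 12 libraries, for genes at 1 TPM or more in at least 3 of them. The fits were run on simulated data in which each gene and library had noise of its own. Changes were placed in 50 genes per size, all with a mean log2(TPM + 1) above 3. Recovery of genes at lower levels is therefore not shown. Far fewer genes were changed than were called in the data, and the adjustment of p depends on that number. Tissue changes of 1 and -1 log2 unit were recovered for 82.0% and 88.0% of the changed genes. Differences between genotypes of that size were recovered for 68.0% and 76.0%. The simulation held no deviation shared by a library or a replicate number, so it does not show how the fits behave with such deviations. For each fruit library a seed share was taken as the 1st percentile of its TPM divided by the mean seed TPM, over genes with at least 50 TPM in all seed libraries of the genotype. As an alternative, that share of the mean seed level was subtracted.

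Same-numbered seed and fruit libraries deviated together in lhp1-6 (correlations of 0.323, 0.211 and 0.142) and in Col-0 (0.197, 0.114 and 0.200), so a fit with the replicate block was run as an alternative. Whether equal numbers share siliques or a later step was not tested. The values reported come from the fit without the block. Genes named were the 12 largest changes in each direction, the 10 most abundant genes of each tissue, members of the gene lists and the 8 clearest differences between genotypes in each direction, of which a part is given. The comparison and the lists were chosen with earlier results of these data known. The alternatives covered the pseudocount, the filter, the scaling, the variance model, the block and each library left out. Names and products came from RefSeq's TAIR10.1 annotation, to which 26715 of the 26925 identifiers matched, and no coordinates were taken from it.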

Additional observations from a re-analysis of the deposited data

Results flagged for a closer look

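For 12 of the genes described, the seed minus fruit change differed between lhp1-6 and Col-0 by the interaction test in limma. Higher values of the seed minus fruit change in lhp1-6 than in Col-0 were found for 5 of them. SEP4 differed by 2.01 (adjusted p = 0.000758), SOC1 by 1.32 (adjusted p = 0.00411), WSD1 by 2.73 (adjusted p = 0.000626) and LSH10 by 2.33 (adjusted p = 0.000298). NCED3 differed by 3.14 in the same direction (adjusted p = 0.0248), a call that was lost in 9 of the settings tried. The other genes had a lower seed minus fruit change in lhp1-6: AGL19 differed by -2.19 (adjusted p = 0.000324), SEP3 by -1.58 (adjusted p = 0.000634), SHP1 by -0.97 (adjusted p = 0.00443), MYB29 by -3.31 (adjusted p = 0.00206), UMAMIT14 by -1.62 (adjusted p = 0.004), AT5G54360 by -3.26 (adjusted p = 3.56e-05) and GATA13 by -2.50 (adjusted p = 6.63e-05). UMAMIT14 was lower in seed in lhp1-6, with a change of -0.82, and higher in seed in Col-0, with a change of 0.80 (adjusted p = 0.000846). Genes with a difference called between genotypes are 1.72% and 3.80% of those tested, and the genes here were named with their values known.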

How the results depend on the processing

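The counts of genes higher and lower in seed for any change stayed within 1.5 times of those reported under every alternative run, and without each lhp1-6 library in turn they ran from 7072 to 7337 higher and from 7291 to 7784 lower. Beyond 1 log2 unit the same runs gave from 2361 to 2658 higher and from 3184 to 3450 lower, and a pseudocount of 5 gave 1626 higher. The share of calls higher in seed among those beyond 1 log2 unit was 42.9% as reported and 52.9% after quantile normalisation. With the replicate block the tissue counts were 7624 and 7922 for any change, and 2797 and 3512 beyond 1 log2 unit. Among single genes, LHCB1.3 changed by -0.77 after quantile normalisation and from -0.102 to 0.384 with 1 library left out, LHCB6 from -0.083 to 0.280, and AAP1 from -0.179 to 0.361. These genes did not pass the test in either direction, and the cause was not tested. Of the other tissue results of single genes, 3477 were on the same side of the threshold with the same sign, 23 lost the call (ABI5, GTR1, RBCS1A and STK) and 10 gained it.

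The difference between genotypes, with the seed minus fruit change higher in lhp1-6 for 343 genes and lower for 757, moved most. At least 5 TPM gave 218 higher. Median-of-ratios rescaling gave 374 lower, quantile normalisation 430 lower and TPM without storage, oil body, late embryogenesis and organelle genes 452 lower, so that 49.9%, 44.9% and 44.8% of the calls were higher, against 31.2% as reported. Array weights gave 1155 higher and 3059 lower, and subtraction of the seed share from the fruit libraries 800 and 2227, of which 341 and 755 were called as reported. The replicate block gave 169 and 328, and with median-of-ratios rescaling 169 and 176. Leaving out 1 library gave from 142 to 1123 higher and from 285 to 2962 lower. The cause was not tested. Of the genes named, the block ended only the call of NCED3 for the difference. TPM tables carry no depth, so how far depth limits genes near 1 TPM is unknown.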
